A study of Mus musculus with 5 samples.

Results

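The mRNAs described here encode the subunits of the 26S proteasome and of the cytosolic chaperonin. They were chosen by gene symbol: protein-coding genes of GENCODE M21 whose symbol starts with Psma, Psmb, Psmc or Psmd and a digit, or is Tcp1 or Cct and a digit. The rule gave 49 of 21951 protein-coding genes. It took in Psmc3ip, which encodes a cofactor of meiotic recombination and no proteasome subunit, and it left out Cct6a, which this annotation does not class as protein-coding. It also took in Psmd5, Psmd9 and Psmd10, assembly chaperones that help to build the 19S cap and are grouped here with its non-ATPase subunits. The rule uses names and no measured value, but it was set with earlier results of these data known.

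All 5 libraries were direct RNA sequencing of mouse embryonic stem cells (mESCs), in which native poly(A) RNA passes through a nanopore and each adenosine of each read is called m6A, unmodified, another modification or failed. The METTL3 inhibition dataset held 1 library of cells kept for 48 h with 30 μM STM2457, an inhibitor of the m6A methyltransferase METTL3, and 1 library of cells with 0.025% v/v DMSO, the solvent. By the study's methods both came from one E14 line that carries 2C and Zscan4 fluorescent reporters, a doxycycline-inducible APOBEC1-YTH transgene that was not induced, and a homozygous degron knock-in at METTL3 that was not induced either. The Mettl5 dataset held 1 library of WT mESCs and 1 library from each of 2 Mettl5-KO clones, with no treatment. METTL5 methylates an adenosine of 18S ribosomal RNA. The knockout group is therefore 2 clonal lines, each sequenced once, and a single WT library served as the control for the pair. By the labels the libraries of each dataset share a batch, but line and batch change from one dataset to the other. Valid calls totalled 71574467 for DMSO, 54051900 for STM2457, 22025887 for WT, 17897440 for clone 1 and 19532075 for clone 2. Of 10 pluripotency genes listed as markers of mESCs, 10 were covered in the inhibition dataset and 8 in the Mettl5 dataset, and in neither dataset were any of 11 listed markers of fibroblasts and differentiated lineages or of 3 Zscan4 genes covered.

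The 26S proteasome degrades ubiquitin-tagged proteins. Its 20S core is built of alpha rings, which gate the entry, and beta rings, which hold the proteases, and its 19S cap joins a ring of AAA ATPases, which unfold the substrate, to non-ATPase subunits that bind and remove ubiquitin. The chaperonin TRiC folds actin, tubulin and other cytosolic proteins inside a double ring of the Cct subunits and Tcp1. In mRNA, METTL3 deposits m6A mostly at DRACH motifs (D is A, G or T, R is A or G, H is A, C or T), and m6A is known to be sparse near exon-exon junctions and dense in long last exons.

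A position counted as a member position when it lay on an exon of a member gene and on its strand. The level of a position or gene is the number of m6A calls per 100 valid calls, in percent, summed over the covered positions of a gene. A gene with at least 50 covered positions is called measured. In the inhibition dataset 29 members had a covered position and 28 were measured, of 2302 measured genes. These members held 4614 of 458029 exon positions and 403 of 39454 DRACH positions. In the Mettl5 dataset 22 members were covered and 20 measured, of 816 genes, with 2782 positions and 237 DRACH positions. Psmd9 in the inhibition dataset and Psma6 and Psma7 in the Mettl5 dataset were covered but not measured. Psma2, Psma3, Psma4, Psma5, Psma8, Psmb1, Psmb3, Psmb5, Psmb7, Psmb8, Psmb9, Psmb11, Psmc1, Psmd2, Psmd10, Psmd11, Psmd14, Cct6b and Cct8l1 had no covered position in either dataset. Psmc6 was covered in the Mettl5 dataset alone, and Psmc3ip, Psmb2, Psmb10, Psmd1, Psmd5, Psmd9, Psmd13 and Cct3 in the inhibition dataset alone. No member position lay on an exon of another protein-coding gene.

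The 8 DRACH sites with the highest levels in DMSO, among those with at least 50 valid calls in both libraries, are shown here because the results below turn on them. A GGACG site of Psmd7, which is no DRACH motif, would rank among them and is described further on. Each line gives 21 bases of the GENCODE M21 transcript, 5′ to 3′, with its mm10 window, and the capitals mark the 5-base motif whose middle A was called.
Psmd5, chr2:34852707-34852727, minus strand: ccaaatatGAACTggtaaaag
Psmd7, chr8:107581240-107581260, minus strand: gcttgaagGGACTgaactcca
Psmd7, chr8:107580480-107580500, minus strand: acccttgtGAACTtttgagac
Psmd13, chr7:140898422-140898442, plus strand: aaagcagaGAACTgtcgctgg
Psmd7, chr8:107580729-107580749, minus strand: agatgagtGGACAaaaggacg
Psmd12, chr11:107497776-107497796, plus strand: aaaaagaaAGACTgttttcat
Psmd4, chr3:95032769-95032789, minus strand: ctgcccggGGACTgtaaagac
Psmd7, chr8:107580454-107580474, minus strand: caccttttGGACCtgtaacta
A further 6 positions, shown for contrast, were at 25% or more in DMSO and kept that level in STM2457. None of them is a DRACH motif.
Psmc2, chr5:21803689-21803709, plus strand: catgacatACAATtgagcccc
Psmc5, chr11:106263043-106263063, plus strand: tcaagaagCTATGgaagtgag
Psmc5, chr11:106262270-106262290, plus strand: aatcagctGGATGgctttgag
Psmd8, chr7:29174222-29174242, minus strand: gactttgtCTATGggctacca
Psmd3, chr11:98695869-98695889, plus strand: ggacagaaCCATGgattaggg
Psmd12, chr11:107491781-107491801, plus strand: gtggaaacCTATGggtccatg

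DRACH positions of the subunit mRNAs lost m6A in STM2457. Of 403 member DRACH positions, 59 were lower in STM2457 (Fisher's exact test per position, two-sided, Benjamini-Hochberg adjusted p below 0.05 over all 39454 DRACH positions), against 19.3% of all DRACH positions. None was higher, against 0.00253% of all. The 59 positions lay in 19 genes, with 12 in Psmd7, 5 each in Psmd5 and Tcp1 and 4 each in Psmd8 and Psmd12. Without Psmd7, 47 of 383 positions were lower. The test compares 2 libraries, since each condition has 1, and calls on one read are not independent of each other. Tests and intervals therefore cover counting error only, and no replicate error can be given for DMSO, STM2457 or WT.

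At 25% or more in DMSO stood 23 of the 403 member DRACH positions, against 14.4% of all DRACH positions, and these 23 lay in 10 genes. All 23 were lower in STM2457 by the same test, as were 92.8% of such positions over all genes. The cut uses the DMSO level that the test also uses, and such a choice by itself favours a lower level in STM2457. The same holds for the sites named below for their DMSO level. Just above the 25% line lay a Psmd5 position at 25.4% and a Tcp1 position at 26.0%, and just below it a Cct4 position at 24.1% and a Psmc2 position at 22.2%.

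The highest level belonged to Psmd5, an assembly chaperone of the 19S base. Its GAACT site in the coding part of the last exon (exon 10 of 10) had 59 m6A calls of 66 in DMSO, or 89.4% (exact binomial 95% interval 79.4 to 95.6%), and 17 of 51, or 33.3% (20.8 to 47.9%), in STM2457 (adjusted p = 5.4e-09, Fisher's exact test). Among the 23, this was the sole position still at 25% or more in STM2457.

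Psmd7 encodes the partner of the deubiquitinase Psmd14 in the 19S lid. Its last exon, the seventh of 7, spans 939 nt and held all 261 covered positions of the gene. The GGACT site at 107581250, 69 nt into this exon and still in the coding sequence, stood at 88.1% of 353 valid calls in DMSO and 21.1% of 389 in STM2457. In the 3′UTR, the GAACT site at 107580490 fell from 85.0% to 20.7%, the GGACA site at 107580739 from 76.8% to 19.1% and the GGACC site at 107580464 from 58.4% to 9.41%. Another GGACC site, at 107580500, fell from 51.4% to 10.4%, and another GGACA site, at 107580790, from 35.7% to 2.90%. All 6 passed Fisher's exact test, with adjusted p from 1.2e-78 to 5.4e-31. Summed over its 20 DRACH positions, Psmd7 stood at 23.7% in DMSO and 4.78% in STM2457.

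**Figure D1:**
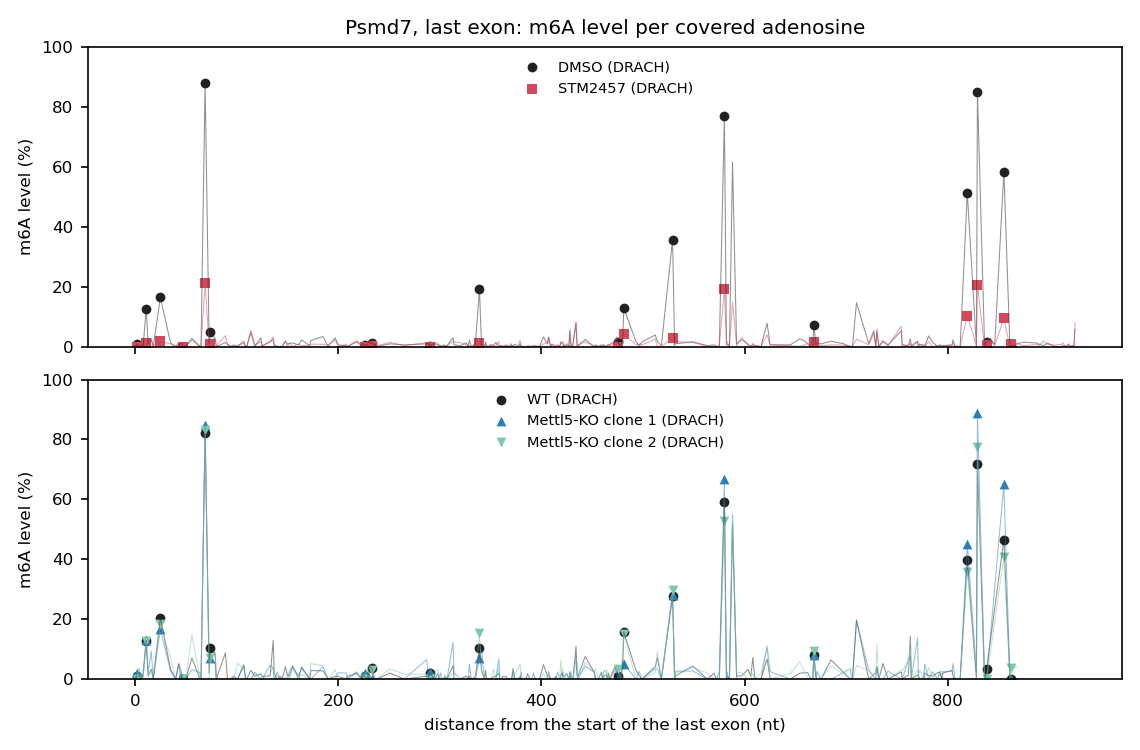
m6A level in percent at each covered adenosine of the last exon of Psmd7 against the distance in nt from the exon's start. The upper panel shows DMSO and STM2457 and the lower panel WT and both Mettl5-KO clones, with lines joining all covered adenosines and symbols marking DRACH positions. The peaks at 35.7% to 88.1% in DMSO are at 2.90% to 21.1% in STM2457, whereas the same peaks stand in all 3 libraries of the Mettl5 dataset.

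Other members carried isolated strong sites. Psmd13, a lid subunit, had a GAACT site in its 3′UTR at 77.8% in DMSO and 16.7% in STM2457, and a second one at 36.7% and 0.952%. Psmd12 had an AGACT site in its 3′UTR at 73.3% and 18.0%. Psmd4, the ubiquitin receptor, had a GGACT site in its 3′UTR at 63.4% (135 of 213 calls) and 7.51% (13 of 173). Tcp1, the chaperonin subunit for which the complex is named, had a TGACT site in the coding part of its last exon at 56.4% and 6.06%. All of these fell by Fisher's exact test, with adjusted p of 7.0e-14 or less for Psmd13 (the stronger site), Psmd4 and Tcp1 and 3.0e-12 for Psmd12. Psmc3ip, no subunit, had a GGACT site at 55.2% of 29 calls and 14.3% of 28.

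Of 33 member positions at 25% or more in DMSO, in 13 genes, 23 were DRACH and 10 were not, a DRACH share of 69.7% against 90.1% of the 6315 such positions of all genes. Among these 10, 3 had DRAC followed by G: a GGACG site of Psmd7 at 61.6% in DMSO and 15.01% in STM2457, a GGACG site of Psmc4 at 37.0% and 4.15%, and an AGACG site of Tcp1 at 26.0% and 1.09%. A CTACG position of Psmc5 stood at 30.6% and 21.8%. The other 6 kept their level, defined as a relative decrease under 25%.

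The 6 kept positions lay in 5 genes. Psmc5, a 19S ATPase, had CTATG at 106263053 with 54.8% in DMSO (48.1 to 61.4%) and 61.3% in STM2457 (53.1 to 69.0%), and GGATG at 106262280 with 31.8% in both. Psmd8, a lid subunit, had CTATG at 29174232 with 49.5% and 61.7%. Psmd3, also of the lid, had CCATG at 98695879 with 31.6% and 42.2%, and Psmd12 had CTATG at 107491791 with 26.7% and 28.9%. Psmc2, a 19S ATPase, had ACAAT at 21803699 with 61.4% and 53.6%. The exact 95% intervals of DMSO and STM2457 overlapped at all 6, which the rule that picked them makes likely. At 5 of the 6 the called A was the first base of ATG, a likeness seen after the values were known. Over all genes, 54 of the 270 kept positions and 91 of the 6315 positions at 25% or more in DMSO had ATG there. Of the 344 member positions with such an ATG, 5 reached 25% in DMSO. Failed calls were frequent at the kept positions, 33.3 to 65.3% of valid and failed calls in DMSO, against 1.37 to 13.5% at the 23 DRACH positions and a median of 6.11% over all member positions. The part of failed calls in the kept levels was not tested.

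**Figure D2:**
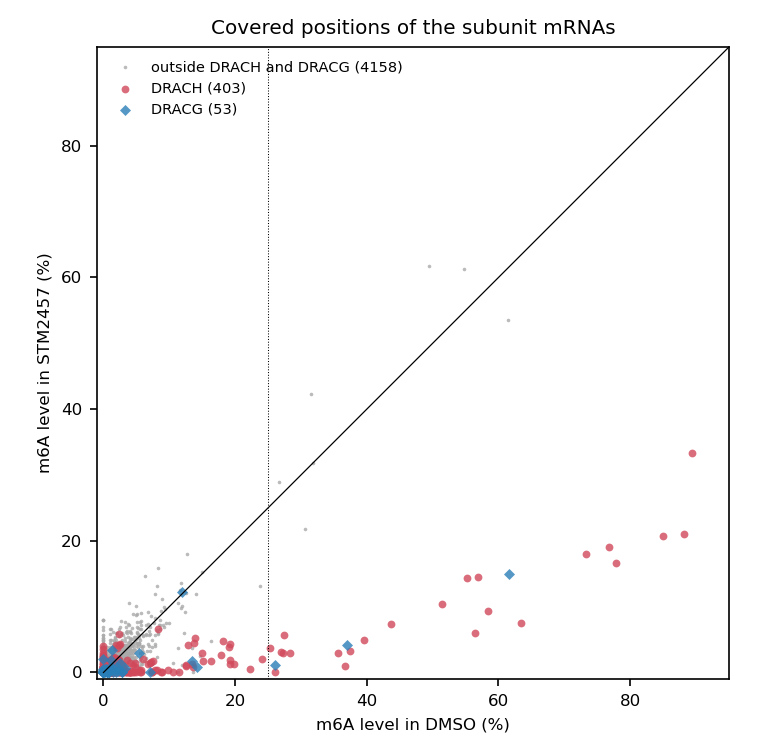
m6A level in percent in DMSO (horizontal) and STM2457 (vertical) of the 4614 member positions, split into 403 DRACH, 53 DRACG and 4158 other positions. The diagonal marks equal levels and the dotted line 25% in DMSO. DRACH and DRACG positions right of the dotted line lie far under the diagonal, and the 6 kept positions lie near or above it.

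The sites of the subunit mRNAs lay mostly in last exons, as did those of other genes. All 23 DRACH positions at 25% or more in DMSO were in a last exon, against 87.0% of the 5689 such positions of all genes. The 206 DRACH positions of internal exons reached at most 8.18% in DMSO. Of these 200 lay under 100 nt from a junction, a class in which 0.731% of the positions of all genes were at 25% or more. Pooled over positions, internal exons of members stood at 0.761% in DMSO and 0.300% in STM2457, and the 191 last-exon positions at 8.53% and 2.04%. Of the 59 lower positions 52 (88.1%) were in last exons and 7 in internal exons, and over all genes 86.7% of 7606 lower positions were in last exons.

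Member DRACH positions were also close to exon-exon junctions. Within 100 nt of a junction lay 68.7% of them, against 34.0% over all genes, and beyond 200 nt lay 16.9% against 50.8%. The measured members had a median of 11 exons, a last exon of 307.5 nt and a 3′UTR of 211.5 nt, whereas the medians of all measured genes were 7 exons, 817 nt and 604 nt. By distance, the pooled levels in DMSO were 1.60% for members and 1.69% for all genes under 100 nt, 4.32% and 11.9% between 100 and 200 nt, and 17.9% and 12.3% beyond 200 nt. Without Psmd7 the members stood at 1.09% under 100 nt and 12.5% beyond 200 nt. In last exons at 100 nt or more from the junction, members stood at 11.1% and all genes at 12.6%, and without Psmd7 the members stood at 7.50%. Across the 28 members, last exon length and DRACH level in DMSO had a Spearman rho of 0.570, and across all 2302 genes 0.336. In WT rho was 0.281 across 20 members and 0.254 across 816 genes. The DRACH level here is that of the covered exons. The last exon had covered positions in 25 of the 28 members and 2048 of the 2302 genes of the inhibition dataset. In the Mettl5 dataset it had them in 10 of the 20 members and 692 of the 816 genes. The rho values are descriptions across genes that share a library.

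**Figure D3:**
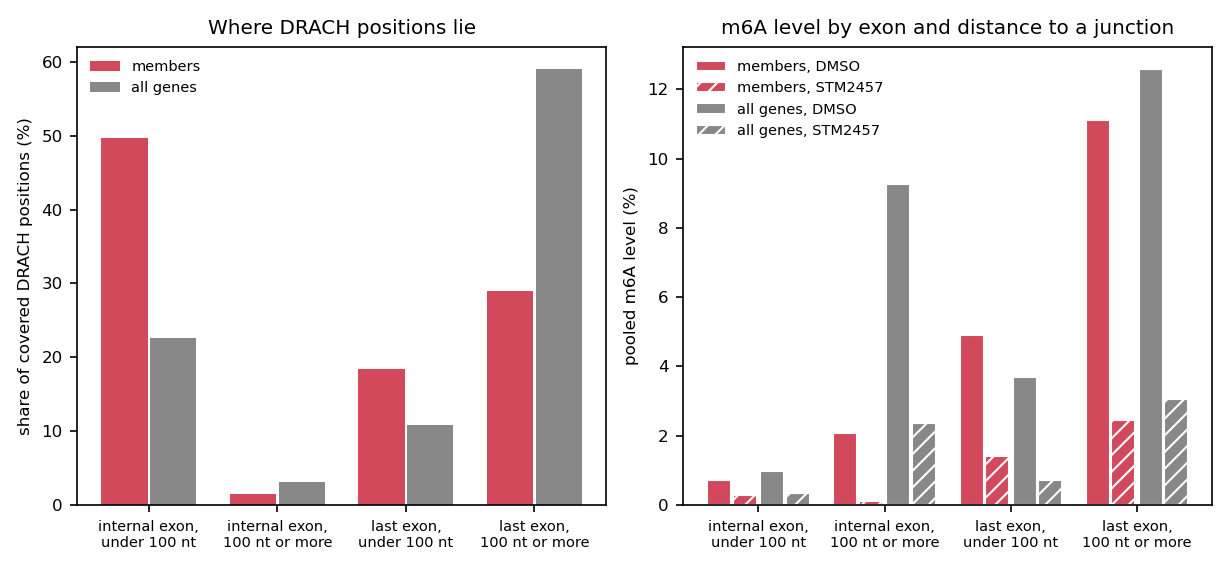
Left, share in percent of the covered DRACH positions by exon class and distance to the nearest junction, for members and all genes. Right, pooled m6A level in percent of the same classes in DMSO (plain bars) and STM2457 (hatched bars). Internal-exon positions under 100 nt from a junction make up 49.6% of member and 22.6% of all positions, and last-exon positions at 100 nt or more 29.0% and 59.1%.

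The level of an mRNA describes its covered part alone. The covered adenosines were a median of 34.1% of those in the representative transcript for members (8.36% for Psmd1 to 80.8% for Psmb6) and 38.4% for all measured genes, with positions on exons of any transcript counted, so that the share can pass 100% in other genes. Coverage was confined to the last exon in 8 of 28 members and in 1225 of 2302 genes. In the members without last-exon coverage, Psmb4, Psmc3 and Psmd6, the level describes upstream exons alone. In the Mettl5 dataset 10 of 20 measured members lacked it, adding Cct4, Cct5, Cct8, Psmc4, Psmc5, Psmd3 and Psmd4. Psmb4 had 854 reads at its deepest position in DMSO and none of its last exon covered, and what set the covered exons was not tested. The part of coverage in the difference between members and other genes was not tested.

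Summed over all covered adenosines of a gene, most of them outside DRACH, the level was low in most members. In DMSO the median over the 28 measured members was 0.986% and that over all genes 1.572%, and in STM2457 0.783% and 0.883%. At DRACH positions alone the medians in DMSO were 2.46% for members and 8.55% for all genes, and in STM2457 0.498% and 1.38%. Outside DRACH they were 0.794% and 0.906% in DMSO and 0.807% and 0.771% in STM2457.

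Among 20S alpha subunits, Psma6 stood at 1.14% in DMSO and 0.770% in STM2457, Psma1 at 1.12% and 0.952%, and Psma7 at 0.655% and 0.632%. Among the beta subunits the immunoproteasome protease Psmb10 stood at 0.989% and 0.868%, the protease Psmb6 at 0.898% and 0.692%, and Psmb4, which has no protease activity, at 0.812% and 0.763%. The exact 95% intervals of DMSO and STM2457 overlapped for Psma1, Psma7, Psmb10, Psmb2 and Psmb4, and did not for Psma6 and Psmb6.

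Among the 19S ATPases, Psmc2 stood at 1.22% in DMSO and 0.938% in STM2457, Psmc5 at 1.193% and 1.022%, and Psmc3 at 0.696% and 0.561%. The 9 measured members of the non-ATPase group, Psmd5 included, had the highest median of the 5 role groups in DMSO, 1.45%, against 1.12% for alpha, 0.873% for beta, 1.05% for ATPase and 0.912% for chaperonin subunits. They also had the widest range. In WT the order of medians differed, with 1.26% for the 6 measured non-ATPase members. There the ATPase median was 1.33%, the chaperonin median 1.37% and the beta median 1.22%, and the 1 measured alpha subunit stood at 1.46%. The DMSO and WT medians rest on different genes and covered exons, and Psmd5 and Psmd13 had no covered position in the Mettl5 dataset. Outside DRACH, the WT medians of the role groups ran from 1.19% for non-ATPase to 1.44% for ATPase members. Whether the change of order reflects m6A was not tested. Psmd7 stood at 2.92% (2.81 to 3.03%) in DMSO and 1.12% in STM2457, Psmd5 at 2.25% and 1.31% and Psmd13 at 2.09% and 0.796%. Psmd6, of the lid, was lowest with 0.604% (0.482 to 0.747%) in DMSO and 0.861% (0.713 to 1.03%) in STM2457, and was the sole member with the higher level in STM2457. Its interval overlaps between the libraries, and its DRACH level was 0.499% in DMSO and 0.317% in STM2457.

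Among chaperonin subunits Cct7 stood at 1.13% in DMSO and 0.887% in STM2457, Cct3 at 0.982% and 0.621%, and Cct5 at 0.693% and 0.579%. No chaperonin subunit reached the median of all genes in DMSO, and neither did any measured alpha, beta or ATPase subunit.

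**Figure D4:**
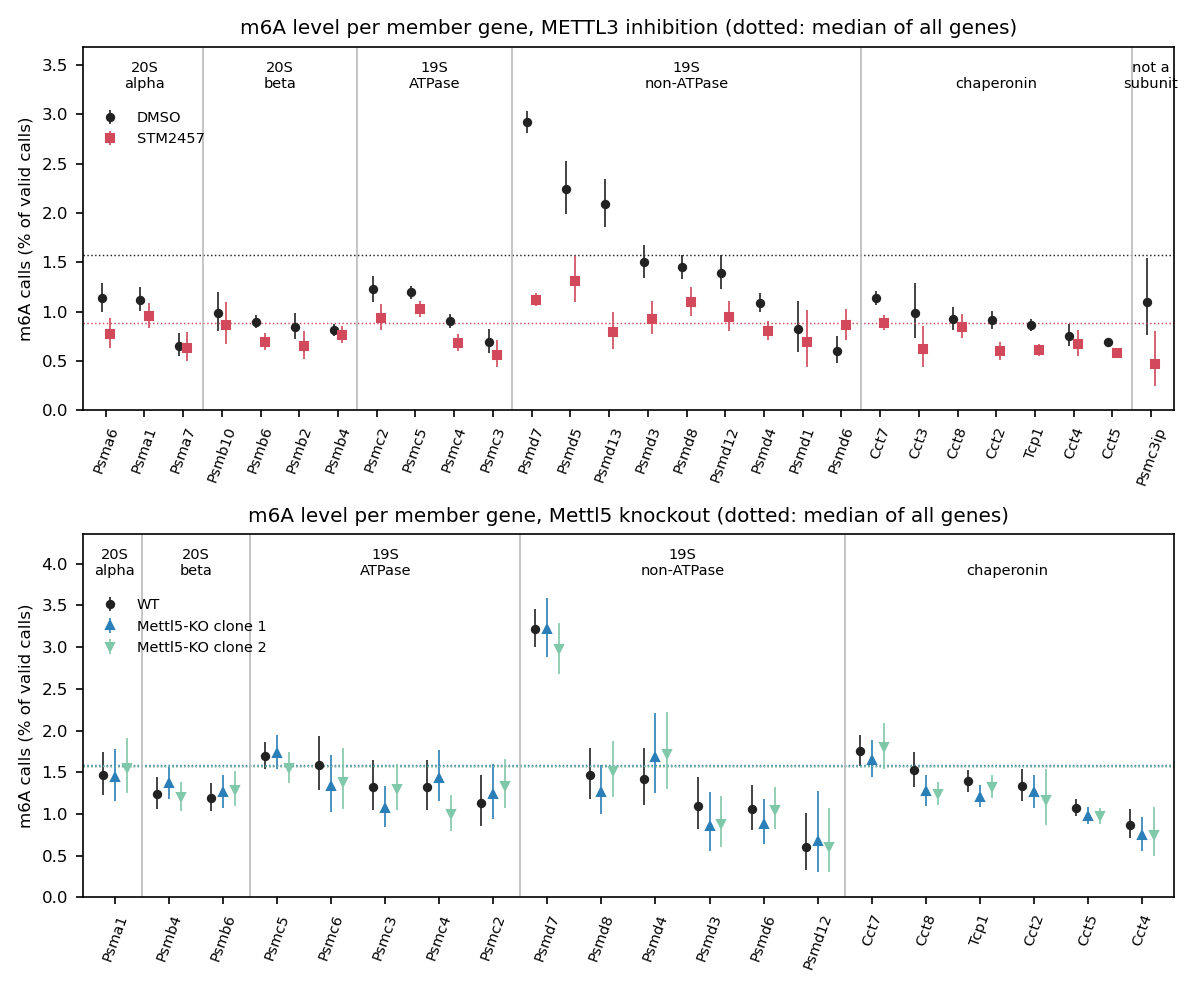
m6A level in percent of valid calls for each measured member, by role group, in DMSO and STM2457 (upper panel) and in WT and both Mettl5-KO clones (lower panel). Bars are exact binomial 95% intervals of counting error and dotted lines the median of all measured genes in each library. Psmd7 stands above all other members in DMSO (2.92%) and in WT (3.22%), and Psmd5 is highest in STM2457 (1.31%).

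With 1 library per condition the gene level has no test, and a 1.5-fold difference was used as a mark of size. Of 28 members 7 were lower by 1.5-fold or more in STM2457, namely Psmd13, Psmd7, Psmc3ip, Psmd5, Psmd3, Cct3 and Cct2, against 69.4% of all genes. None was higher by that factor, against 0.304%. Among the 7, the exact 95% intervals of DMSO and STM2457 overlapped for Cct3 and Psmc3ip and did not for the others. With the mean of the level over positions, Cct2 no longer reached 1.5-fold and Tcp1 did. Lower by any amount were 27 members, against 96.3%. The median ratio of STM2457 to DMSO was 0.765 for members and 0.544 for all genes. At DRACH positions alone, 24 of 28 members were lower by 1.5-fold or more, against 92.4% of genes, and 0 were higher, against 0.434%. Outside DRACH, 1 member was lower, against 15.2%, namely Psmc3ip with 15 m6A calls in DMSO and 9 in STM2457. Higher was 1, against 1.69%, namely Psmd6 with 76 and 113 calls. Outside DRACH the level was lower by any amount in 21 of 28 members, against 79.2%. The members' share was below that of all genes over all adenosines and near it at DRACH positions.

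Read depth, taken as the highest number of valid and failed calls at a covered position and scaled by the median ratio over all genes, gives an estimate of a transcript's share of a library. Depth cannot tell fewer cells with a transcript from fewer copies per cell. In STM2457 5 of 28 members were lower by 1.5-fold or more, against 9.04% of all genes, and 0 were higher, against 10.03%. The ratios were 0.579 for Psmb4 (854 reads in DMSO and 415 in STM2457), 0.600 for Psmc4, 0.604 for Psmd8, 0.623 for Psma7 and 0.643 for Psmb6. The 3 highest ratios were 1.39 for Cct3, 1.32 for Psmd7 and 1.19 for Psmd6, and the median over members was 0.841. With depth scaled by total valid calls instead, Psma7 and Psmb6 were lower by less than 1.5-fold and Cct3 was higher by more. With the median depth over positions, the log2 ratio of Psma7 was -0.14, and Cct5 (-0.65) and Cct3 (0.76) passed 1.5-fold.

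**Figure D5:**
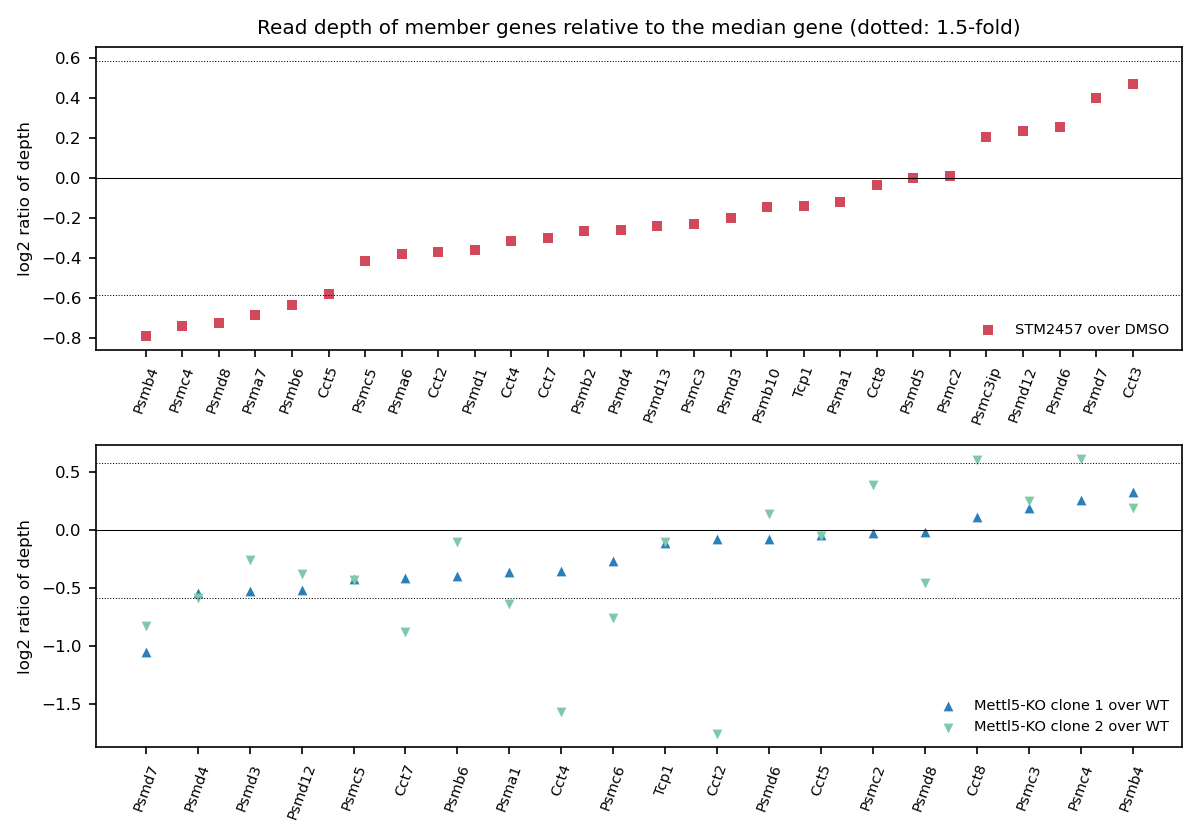
Log2 ratio of scaled read depth for each measured member, STM2457 over DMSO (upper panel) and each Mettl5-KO clone over WT (lower panel), with dotted lines at 1.5-fold. In STM2457 5 members lie under the lower line, and in the clones Psmd7 lies under it in both. In clone 2 alone Cct2, Cct4, Cct7, Psmc6 and Psma1 lie under it, and Psmc4 and Cct8 lie above the upper line.

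In the Mettl5 dataset no member DRACH position was called as changed. By Fisher's exact test with Benjamini-Hochberg adjustment over 15649 DRACH positions, 0 of 237 member positions differed in clone 1, in clone 2, in both, or between the clones, and the same held for all genes (0.0% in each comparison). At an unadjusted p under 0.05, 1 member position differed in clone 1, against 1.18% of all DRACH positions, and 2 in clone 2, against 1.56%. In both clones 0 differed, against 0.332%, and between the clones 3, against 0.895%. The median coverage of a member position was 97 calls for WT and 63 and 61 for the clones.

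The Psmd7 sites stood in all 3 libraries. The GGACT site at 107581250 was at 82.1% in WT, 84.8% in clone 1 and 83.1% in clone 2, and the GAACT site at 107580490 was at 71.7%, 88.9% and 77.4%. Over all 20 DRACH positions Psmd7 stood at 20.8%, 21.5% and 18.7%. The Tcp1 site at 12924472 was at 55.6% in WT, 32.0% in clone 1 and 59.0% in clone 2, and the Psmd8 site at 29174389 at 26.7%, 6.90% and 23.0%. At both of these the clones differed from each other more than their mean differed from WT.

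The member position closest to a change in both clones was a GGACA site in the 3′UTR of Psma1 at 114264881, with 11 of 83 calls (13.3%) in WT, 3 of 59 (5.08%) in clone 1 and 3 of 55 (5.45%) in clone 2 (p = 0.154 and 0.161, adjusted p = 1 in both, Fisher's exact test). The next 4, at 87486520 and 87485605 in Cct8 and at 31592874 and 31594443 in Cct5, stood between 0% and 4.76% in every library. At such levels a few calls set the difference.

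Gene levels of the members stayed within 1.5-fold of WT in both clones. Of 20 members 0 were lower by that factor in both, against 0.49% of genes, and 0 were higher, against 0.613%. The level was above WT in both clones for 4 members, against 36.4% of genes, and below WT in both for 9, against 32.7%. Both clones were set against the same WT library, so their agreement in direction is not independent. Medians over members were 1.33% in WT, 1.26% in clone 1 and 1.30% in clone 2, and over all genes 1.58%, 1.59% and 1.57%. Psmd7 stood at 3.22% in WT, 3.22% in clone 1 and 2.97% in clone 2, and Psmd12, the lowest, at 0.603%, 0.676% and 0.604%. Psmd12 had 51 covered positions here, against 250 in the inhibition dataset, where it stood at 1.39% in DMSO. Over the 51 positions covered in both datasets its DMSO level was 0.385%. At DRACH positions alone 0 members were lower by 1.5-fold in both clones, against 2.08%, and 1 was higher, against 5.76%. This was Psmd4, at 0.367%, 0.904% and 1.35% from 2, 3 and 5 m6A calls over 8 positions, which do not include its 3′UTR site.

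In depth 1 member of 20, Psmd7, was lower by 1.5-fold or more in both clones, against 3.92% of genes, with 116 reads for WT against 50 and 67 for the clones and scaled ratios of 0.483 and 0.563. None was higher in both, against 2.94%. Taken singly, clone 1 had 1 lower, against 7.97%, and 0 were higher, against 5.88%. Clone 2 had 6 lower, against 11.4%, and 2 higher, against 7.84%. Cct2 had 224, 190 and 68 reads, with ratios of 0.951 and 0.296, and Cct4 110, 77 and 38 reads, with ratios of 0.785 and 0.337. The other ratios of clone 2 past 1.5-fold were 0.543 for Cct7, 0.591 for Psmc6, 0.642 for Psma1, 1.54 for Psmc4 and 1.53 for Cct8, so that chaperonin subunits lay on either side. In direction, 14 of 20 members were below WT in both clones, against 38.8% of genes, and 4 were above, against 38.8%. Both ratios of a gene share the single WT library, so agreement of the clones, that for Psmd7 included, is not independent.

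The members' order of levels was much the same in both untreated cultures. Over the positions covered in both datasets, 19 members had 50 or more, and their levels in DMSO and WT had a Spearman rho of 0.884, against 0.897 for 715 genes. All 19 were higher in WT than in DMSO, as were 547 of the 715 genes, and the median was 0.836% in DMSO and 1.33% in WT. The direction holds for all adenosines together. At their shared DRACH positions 7 of the 19 members were higher and 12 lower in WT, and of the 715 genes 111 were higher and 600 lower. The median at these positions was 0.679% in DMSO and 1.07% in WT for the members, and 5.78% and 4.19% for the genes. Line, batch and solvent all change between these libraries and cannot be told apart.

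Other genes of these pathways were taken from a list of 31 proteasome activators, assembly factors and regulators, ubiquitin genes and enzymes, and chaperonin partners, of which 15 were measured in the inhibition dataset. Their median was 1.06% in DMSO and 0.761% in STM2457. Lower by 1.5-fold or more in STM2457 were 6 of 15, against 69.4% of all genes, and 0 were higher, against 0.304%. Among those lower were Psmg3, an assembly factor of the 20S core, at 3.76% in DMSO and 1.75% in STM2457, and the proteasome-bound deubiquitinase Usp14 at 1.74% and 0.702%. In the Mettl5 dataset 14 were measured. Of these 1, the deubiquitinase Uchl5, was lower by 1.5-fold or more in both clones, against 0.49% of all genes. Uchl5 stood at 0.800% in WT, 0.344% in clone 1 and 0.349% in clone 2, over 57 covered positions with depths of 32, 26 and 43 reads. Its 5 DRACH positions stood at 0.637% in WT and 0% in both clones. At such depths and levels a few calls set the difference.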

How the data were processed

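Per the study's methods, WarpDemuX separated the libraries, dorado did the basecalling, m6A calling and mm10 alignment, and modkit pileup summed the calls by position. The deposited counts are valid, m6A, unmodified, other-modification, deletion, failed and mismatch calls per position and strand, not normalized. The deposited percent is 100 times m6A over valid calls, so failed calls are outside it. Within a dataset all libraries list the same positions, each with at least 25 valid calls.

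Positions were assigned to GENCODE M21 exons on the call strand, with motifs from the transcript sequences (Python 3.11.15, scipy 1.17.1, pandas 2.3.3). Fisher's exact test compared m6A and unmodified calls at DRACH positions, with Benjamini-Hochberg adjustment over all of them, and was tested on simulated data. A level of 0 calls was replaced by a floor of 3 calls in ratios. The members, gene lists and thresholds were chosen with earlier results of these data known. Named were the 2 highest and the lowest member of each role group by DMSO level, the 10 positions highest in DMSO with at least 50 valid calls in both libraries, the positions kept in STM2457, the 5 positions closest to a call in both clones, members past 1.5-fold in both clones, the 3 highest and lowest depth ratios, unmeasured members, and the 3 other pathway genes highest in DMSO. Other genes and positions were named after their values were seen. One gene of the pathway list that this rule would name is not reported here.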

Additional observations from a re-analysis of the deposited data

Results flagged for a closer look

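Calls of a modification other than m6A were not used in any comparison. At member positions they made up 0.481% of valid calls in DMSO, 0.434% in STM2457, 0.607% in WT, 0.595% in clone 1 and 0.626% in clone 2. At 3 positions such calls reached 25% of valid calls in a treated or knockout library, with an exact binomial 95% interval above the value of the control library. In the 3′UTR of Psmd8, position 29174565 had 35.1% (47 of 134; 27.0 to 43.8%) in STM2457 and 20.4% (56 of 275) in DMSO. In the coding sequence of Psmd3, position 98693642 had 28.0% (7 of 25; 12.1 to 49.4%) in clone 1, 9.76% (4 of 41) in WT and 12.9% in clone 2. In the coding sequence of Tcp1, position 12923588 had 25.3% (23 of 91; 16.7 to 35.5%) in clone 1, 13.3% (16 of 120) in WT and 23.0% in clone 2. The same Tcp1 position stood at 25.8% in DMSO and 22.6% in STM2457. These 3 were picked among 4614 and 2782 positions for their values, and were not tested.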

How the results depend on the processing

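The 59 member DRACH positions lower in STM2457 became 26 of 33 when the positions tested were those at 25% or more in any library, whatever their motif, and ranged from 47 to 59 under the other alternatives. The count of 0 in both clones was 0 under all alternatives run, each clone alone and both pooled included. The 7 members lower by 1.5-fold became 3 at 2-fold, 24 at DRACH positions alone, 1 outside DRACH and 3 with at least 200 covered positions (8 genes). Members past 1.5-fold in both clones went from 0 to 1 at DRACH positions alone. The median level at DRACH positions alone was 2.46% in DMSO, 0.498% in STM2457, 1.11% in WT and 0.970% in clone 1, and with at least 200 covered positions 1.29% in DMSO, 1.70% in WT and 1.74% in clone 1. In last exons alone, an alternative chosen after seeing the data, it was 1.45% in DMSO (19 members) and 1.53% in WT (6 members). The 5 members past 1.5-fold in depth in STM2457 were 0 at 2-fold. The single one in both clones was 0 at 2-fold, 0 without Psmd7 (chosen after seeing the data) and 3 with the median depth over positions. Leaving out clones gave 1 to 8, and the 8 are clone 2 alone. The 6 kept positions were 3 with at least 50 valid calls and 2 with failed calls counted as unmodified. For Psmd5 the log2 ratio of the level was -0.77 over all adenosines and 0.36 outside DRACH. The cause of these shifts was not tested.

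No paired analysis was possible because the groups compared share fewer than 2 replicate numbers. Depth limits what was seen, since a position with 25 calls in each library cannot show small changes. Only covered parts of each mRNA, a median of 34.1% of the adenosines of members in the inhibition dataset, were analysed here. What left the other parts, and the members with no covered position, uncovered was not tested. By name, 6 annotated pseudogenes belong to 5 members, and their part in the levels was not tested.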
